A study of Rattus norvegicus with 484 samples.

Results

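Acat1 and Slc16a1, genes for an enzyme of ketone body metabolism and for a carrier of ketone bodies, were followed across 4 tissues of rats given activators of nuclear receptors. They were taken by gene symbol in the array's annotation: 2 genes of 10210 named genes, with 2 probes each, 4 of 23653 probes in all. Each of the 4 probes had a value on all 484 arrays and none lay at the limit of the scale. Acat1 has gene ID 25014 and lies on chromosome 8 from 62876003 to 62905080 of GRCr8. Slc16a1 has gene ID 25027 and lies on chromosome 2 from 194805556 to 194832966 of the same build.

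On each array the RNA of 1 rat was compared with RNA pooled from 10 to 16 vehicle rats, matched for tissue and day. The rats had received the fibrates fenofibrate (400 mkd, the dose unit of the labels) or bezafibrate (250 mkd), Wy-14643 (100 mkd, a PPARA agonist), rosiglitazone (100 mkd, a PPARG agonist), retinoic acid (25 mkd) or vehicle. Liver, soleus and quad were sampled on days 2 to 6. Liver had 15 arrays for each compound but fenofibrate, which had 14, and 73 of single vehicle rats. Soleus, a slow muscle, had 19 for fenofibrate, 18 for Wy-14643, 20 for each of the other compounds and 35 for vehicle. The muscle labelled quad had 18 for fenofibrate, 20 for bezafibrate, 16 for each of Wy-14643 and rosiglitazone, 18 for retinoic acid and 63 for vehicle. A muscle labelled EDL had 54 arrays from days 3 to 6 and no single vehicle rats: 9 for fenofibrate at 50 mkd, 9 for bezafibrate at 25, 12 for Wy-14643 at 10, 9 for rosiglitazone at 10, 11 for retinoic acid at 2.5 and, on day 4 only, 4 for rosiglitazone at 100 mkd. No strain or age is given in the sources used here.

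Ketone bodies are made in liver mitochondria from acetyl-CoA when fatty acids are burned fast, and are taken up and burned by muscle, heart and brain. Acat1 encodes the mitochondrial acetoacetyl-CoA thiolase, which joins acetyl-CoA into acetoacetyl-CoA for ketone body synthesis in liver, splits it when ketone bodies are used, and takes part in isoleucine breakdown. Slc16a1 encodes the monocarboxylate carrier MCT1, which moves lactate, pyruvate and ketone bodies across membranes together with a proton. PPARA is the fatty acid receptor of liver and muscle that fibrates and Wy-14643 activate, and it is known for raising genes of fatty acid oxidation and ketone body synthesis in liver.

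The promoters of both genes are shown because the genes rose together in liver. They are RefSeq's, from the GRCr8 table, and run from 250 bases before to 50 bases after the start that this table uses, 5′ to 3′ on the gene's strand. That start is base 62905042 for Acat1 and base 194812660 for Slc16a1, which lie 38 and 7104 bases inside the gene spans given above. Acat1's is chr8:62904993-62905292 on the minus strand and Slc16a1's is chr2:194812410-194812709 on the plus strand. Capitals mark matches on either strand to CCAAT, to GGGCGG (a GC box), to CACGTG (an E-box) and to TATAA.
Acat1: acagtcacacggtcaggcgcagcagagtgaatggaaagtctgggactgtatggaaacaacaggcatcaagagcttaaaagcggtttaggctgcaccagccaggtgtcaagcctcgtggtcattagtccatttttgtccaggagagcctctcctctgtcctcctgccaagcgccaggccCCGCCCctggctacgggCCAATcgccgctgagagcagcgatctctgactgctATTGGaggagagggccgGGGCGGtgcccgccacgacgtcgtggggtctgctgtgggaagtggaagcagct
Slc16a1: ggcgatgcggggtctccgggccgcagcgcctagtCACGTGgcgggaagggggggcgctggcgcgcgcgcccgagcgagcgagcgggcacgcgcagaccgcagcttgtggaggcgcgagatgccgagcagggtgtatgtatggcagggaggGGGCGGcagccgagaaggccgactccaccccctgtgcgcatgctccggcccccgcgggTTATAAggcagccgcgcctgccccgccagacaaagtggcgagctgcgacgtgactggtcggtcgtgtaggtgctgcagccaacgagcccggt

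Acat1's window had CCAAT at -55 and -20 from the table's start and a GC box at -72 and -3, and its GC content was 60.0%. Slc16a1's window had an E-box at -216, a GC box at -100, and TATAA at -42 and -41 on opposite strands, which overlap. Its GC content was 72.7%, above that of 95.1% of 33469 rat promoters, whose median was 51.7%. Neither window held AGGTCA, the hexamer that nuclear receptors bind, or its direct repeat with 1 base between, the pattern bound by PPARA with its partner. These letters occurred in 16.18% and 0.05% of all promoters, against 37.49% for CCAAT, 33.06% for GGGCGG, 6.42% for CACGTG and 26.22% for TATAA.

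In liver, Acat1 rose with both fibrates and with Wy-14643, and Wy-14643 gave the highest values. The log2 ratio of a rat to its pool, lowest, median and highest, was 0.88, 1.59 and 1.90 with fenofibrate, 0.10, 0.56 and 0.95 with bezafibrate, and 1.12, 1.98 and 2.30 with Wy-14643, against -0.60, -0.04 and 1.60 in vehicle rats. All 44 rats given a PPARA agonist lay above the vehicle mean of their day. Above each vehicle rat of their day lay 13 of 14 fenofibrate, 11 of 15 bezafibrate and 15 of 15 Wy-14643 rats. Fenofibrate rat 1155, at 1.10 on day 5, lay below vehicle rat 1054 alone, and the next vehicle rat of that day was at 0.24. The share of all features with such a separation was not counted. The highest vehicle value, 1.60 on day 5 in rat 1054, stood apart from the other vehicle rats, and without it the mean of the PPARA agonists was 1.37 in place of 1.34.

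**Figure D1:**
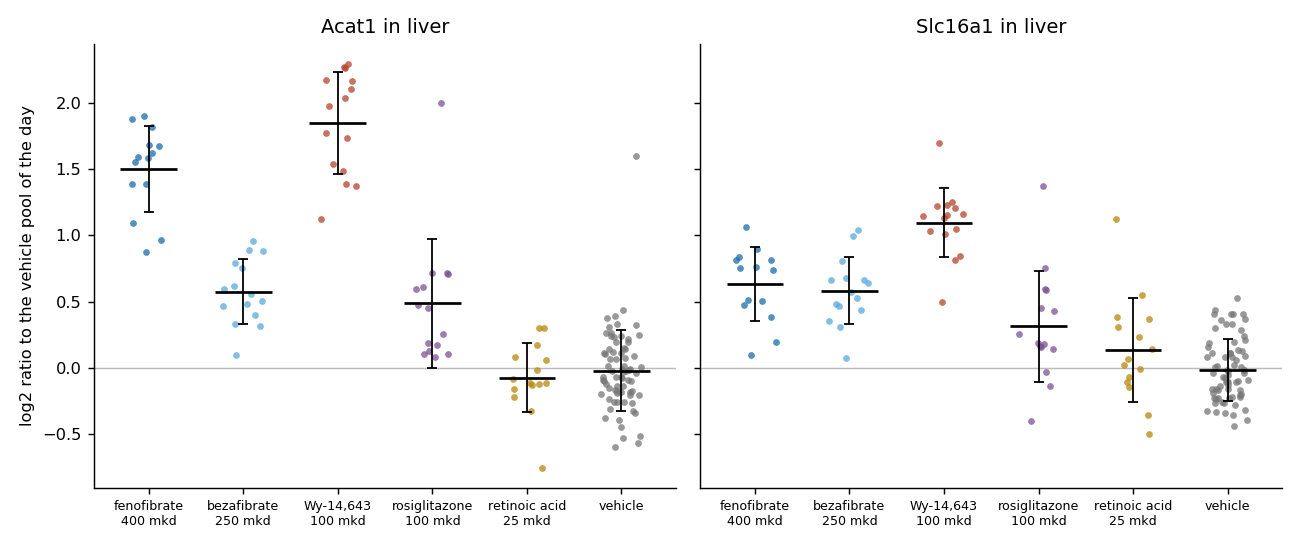
Log2 ratio of each liver to the vehicle pool of its day (vertical axis) for Acat1 and Slc16a1, by compound and dose (horizontal axis). Points are rats, thick lines the means and bars the SD. For Acat1 the Wy-14643 rats sit between 1.12 and 2.30, and the 73 vehicle rats between -0.60 and 1.60. For Slc16a1 they sit between 0.50 and 1.70, against -0.44 to 0.53 in vehicle.

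The change of Acat1 against same-day vehicle rats, averaged over days, was 1.55 ± 0.09 (log2 ± SE) with fenofibrate, 0.60 ± 0.09 with bezafibrate and 1.87 ± 0.09 with Wy-14643. As folds these are 2.93, 1.52 and 3.66. By limma's moderated test, adjusted over all features with the Benjamini-Hochberg method at 0.05, the adjusted p was 1.8e-30, 3.3e-08 and 4.0e-39 in that order. The liver responded broadly: 40.2% of all features passed for Wy-14643, 37.0% for fenofibrate and 21.3% for bezafibrate, so a call alone sets a gene little apart there. The mean of the 3 agonists was 1.34 ± 0.06, adjusted p 9.7e-42 by limma, in a comparison in which 45.5% of features passed. All compounds of a tissue were set against the same vehicle arrays, so their changes share that reference.

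Slc16a1 rose with the same 3 compounds, by less than Acat1 for fenofibrate and Wy-14643, although the genes were not tested against each other. Its log2 ratio to the pool, lowest, median and highest, was 0.10, 0.75 and 1.06 with fenofibrate, 0.08, 0.57 and 1.04 with bezafibrate, and 0.50, 1.14 and 1.70 with Wy-14643, against -0.44, -0.04 and 0.53 in vehicle rats. All 44 agonist rats again lay above the vehicle mean of their day. Above each vehicle rat of the day lay 9 of 14, 11 of 15 and 15 of 15. The changes were 0.65 ± 0.08, 0.60 ± 0.08 and 1.11 ± 0.08, or 1.57-, 1.51- and 2.16-fold, and their mean was 0.79 ± 0.05 with an adjusted p of 5.1e-26 by limma.

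The probes of Acat1 gave nearly the same changes in liver, and those of Slc16a1 did not. Acat1 probes 1 and 2 gave 1.56 and 1.54 for fenofibrate, 0.60 and 0.60 for bezafibrate, and 1.89 and 1.86 for Wy-14643. Slc16a1 probe 1 gave 0.29, 0.10 and 0.44 for the same compounds, and probe 2 gave 1.02, 1.09 and 1.78. With probe 1 the bezafibrate change did not pass (adjusted p 0.23 by limma), and the fenofibrate and Wy-14643 changes did. Over all 147 liver arrays the probes of Acat1 correlated at 0.96 and those of Slc16a1 at 0.57, as a description. The size of the Slc16a1 change therefore depends on the probe, and its direction with fenofibrate and Wy-14643 does not. Which transcript each probe reads was not tested.

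**Figure D2:**
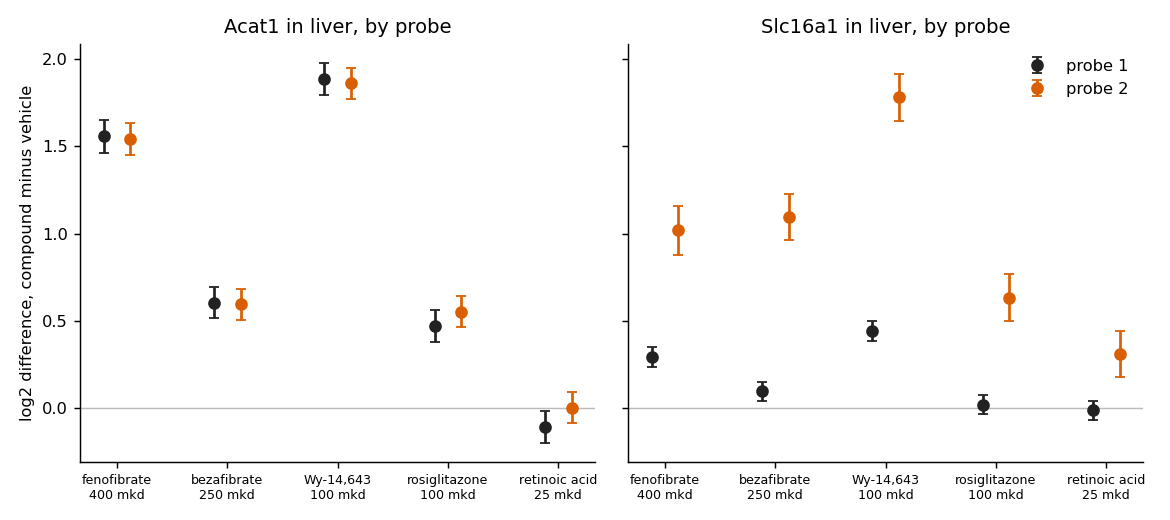
Log2 change in liver against same-day vehicle rats (vertical axis) by compound (horizontal axis), for each probe alone. Points are estimates and bars their SE. The points of Acat1's probes lie together, and Slc16a1 probe 2 reaches 1.78 with Wy-14643 where probe 1 reaches 0.44.

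Wy-14643 was set beside the fibrates at the doses given, which differ between compounds. Its change was larger than the fibrate mean by 0.80 ± 0.10 for Acat1 (95% interval 0.60 to 0.99, adjusted p 8.7e-10 by limma) and by 0.49 ± 0.09 for Slc16a1 (0.31 to 0.66, adjusted p 4.4e-05 by limma). In this comparison 9.03% of features passed. For Slc16a1 the difference passed with either probe, at 0.25 with probe 1 and 0.72 with probe 2. For Acat1 the fibrates stood apart from each other too, 1.55 with fenofibrate and 0.60 with bezafibrate, a difference that was not tested. For Slc16a1 the fibrates were at 0.65 and 0.60.

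The rise of both genes was in place on day 2. Acat1's change with Wy-14643 was 1.36, 1.84, 2.01, 1.95 and 2.21 on days 2 to 6, each with an SE of 0.20. With fenofibrate it was 1.32, 1.83, 1.43, 1.62 and 1.56 on the same days, and with bezafibrate 0.70, 0.72, 0.65, 0.35 and 0.57. Single Wy-14643 rats had log2 ratios of 1.39, 1.54 and 1.12 on day 2 and 2.28, 2.27 and 2.11 on day 6, which do not overlap. With 3 rats a day this describes those rats only, and a slope with Wy-14643 alone was not tested. Slc16a1's change with Wy-14643 was 1.36, 1.05, 0.81, 1.21 and 1.12, with an SE of 0.18 a day. The slope of the agonist mean was 0.05 ± 0.04 per day for Acat1 and 0.00 ± 0.04 for Slc16a1. Neither passed (adjusted p 0.71 and 1.0 by limma), in a comparison that called 0.838% of features.

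**Figure D3:**
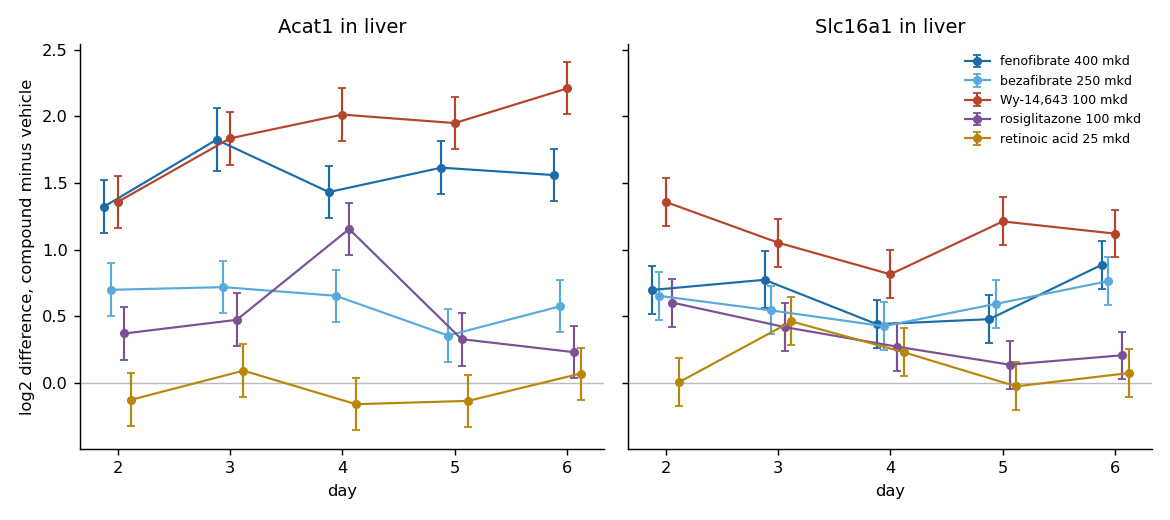
Log2 change against same-day vehicle rats in liver (vertical axis) by day (horizontal axis). Points are estimates per compound and day and bars their SE. Acat1 with Wy-14643 is at 1.36 on day 2 and 2.21 on day 6, and rosiglitazone stands high for Acat1 on day 4, at 1.15. That point includes rat 1376, at a log2 ratio of 2.00 on an array with 4.59 times the median spread. The other rats of that group were at 0.71 and 0.47.

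Rosiglitazone also raised both genes in liver, by less. The log2 ratio of Acat1 was 0.08, 0.45 and 2.00 (lowest, median, highest), against -0.60, -0.04 and 1.60 in vehicle rats, and 7 of 15 rats lay above each vehicle rat of their day. For Slc16a1 it was -0.40, 0.19 and 1.38, against -0.44, -0.04 and 0.53 in vehicle rats, with 5 of 15 above. The change was 0.51 ± 0.09 for Acat1 (adjusted p 9.5e-06 by limma) and 0.33 ± 0.08 for Slc16a1 (adjusted p 0.0018 by limma), where 22.7% of features passed. The highest value of each gene came from rat 1376 on day 4, whose liver array had 4.59 times the median spread of its tissue. Without that array the changes were 0.42 and 0.22, and both still passed, with adjusted p 0.00019 and 0.029 by limma. With Slc16a1 probe 1 alone the change was 0.020 and did not pass.

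With retinoic acid neither gene passed in liver. Acat1 had log2 ratios of -0.76, -0.11 and 0.30 and Slc16a1 of -0.50, 0.07 and 1.13, against the vehicle values given above, and 1 of 15 and 2 of 15 rats lay above each vehicle rat of their day. The changes were -0.05 ± 0.09 (adjusted p 0.72 by limma) and 0.15 ± 0.08 (adjusted p 0.16 by limma), with intervals of -0.23 to 0.12 and -0.01 to 0.31, while 29.2% of features passed.

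Rats that were high for one gene tended to be high for the other in liver, also without treatment. Over the 73 vehicle livers, with day means subtracted, Acat1 and Slc16a1 correlated at r = 0.45 (permutation p 3e-05, adjusted over 3 tissues 9e-05) and rho = 0.43 (permutation p 0.00027, adjusted 0.00081). Without the 2 rats farthest from the median of Acat1 r was 0.39, and within single days it ran between 0.06 and 0.68. In quad, over 63 vehicle rats, r was 0.30 (adjusted permutation p 0.048) and rho 0.25 (adjusted permutation p 0.091), and r within days ran between -0.17 and 0.64. In soleus, over 35, r was -0.13 (adjusted permutation p 0.44) and rho -0.13 (adjusted permutation p 0.49). Points of 1 array share its hybridisation and its pool.

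**Figure D4:**
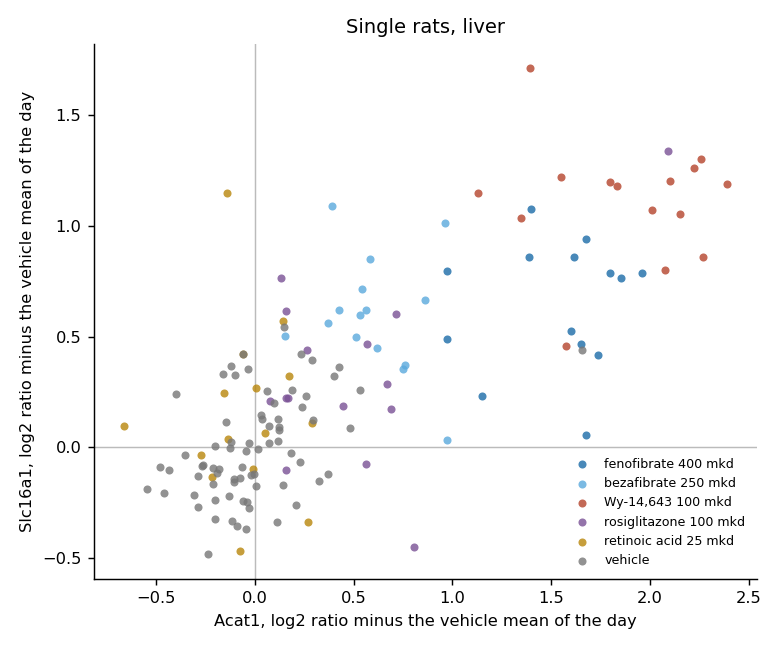
Each point is 1 liver, with Acat1 (horizontal axis) and Slc16a1 (vertical axis) as log2 ratios minus the vehicle mean of the day. The Wy-14643 rats lie between 1.13 and 2.39 for Acat1. The vehicle rat at 1.65 for Acat1 is rat 1054, at 0.44 for Slc16a1.

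In soleus neither gene passed for any compound. Acat1 had log2 ratios of -0.59, -0.06 and 0.41 with fenofibrate, -0.59, -0.02 and 0.33 with bezafibrate and -0.80, 0.18 and 0.41 with Wy-14643 (lowest, median, highest), against -2.10, -0.07 and 0.43 in vehicle rats. The groups overlapped, and 11 of 57 agonist rats lay above and 4 below each vehicle rat of their day. Its change was 0.07 ± 0.09, 0.06 ± 0.09 and 0.10 ± 0.10, and 0.08 ± 0.07 for the mean (interval -0.07 to 0.22, adjusted p 0.53 by limma). Slc16a1 changed by 0.10 ± 0.06, -0.12 ± 0.05 and -0.13 ± 0.06 for the same compounds, with adjusted p 0.32, 0.31 and 0.76 by limma, and the mean was -0.05 ± 0.04 (interval -0.13 to 0.04). With rosiglitazone and retinoic acid Slc16a1 was at -0.15 ± 0.05 for both, with adjusted p 0.16 and 0.13 by limma, and Acat1 at 0.07 and 0.02. In soleus the share of features that passed was 1.96% for the agonist mean, 0.191% for Wy-14643, 3.33% for fenofibrate and 0.904% for bezafibrate. It was 2.63% for rosiglitazone and 2.85% for retinoic acid.

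The array of vehicle rat 1022 in soleus had 12.3 times the median spread and held the lowest Acat1 value, -2.10, with -2.79 on probe 1 and -1.40 on probe 2. On the same array Slc16a1 probe 1 read 2.43 and probe 2 read -2.34, which average to 0.05. Over the 35 vehicle soleus arrays the probes of Slc16a1 correlated at -0.80, and at -0.09 over the 32 not in doubt. Without rat 1022 the agonist mean of Acat1 in soleus was 0.04. In quad they correlated at -0.16 over 63 vehicle arrays and at 0.02 over the 61 not in doubt. Over treated and vehicle arrays together, without those in doubt, they correlated at 0.29 in soleus (129 arrays) and 0.16 in quad (146 arrays). Slc16a1 in muscle therefore rests on probes that varied together weakly at most.

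In quad neither gene passed for a PPARA agonist. Acat1 had log2 ratios of -1.40, -0.09 and 0.30 with fenofibrate, -0.45, -0.03 and 0.36 with bezafibrate and -0.78, 0.10 and 0.39 with Wy-14643, against -0.71, 0.05 and 0.63 in vehicle rats. The lowest value was that of rat 1157, whose quad array was in doubt for its spread. The changes were -0.15 ± 0.07, -0.06 ± 0.06 and -0.01 ± 0.07, with adjusted p 0.16, 0.76 and 0.99 by limma, and the mean was -0.07 ± 0.05 (interval -0.16 to 0.02). Without rat 1157 the fenofibrate change was -0.06 and the mean -0.04. Slc16a1 changed by -0.04 ± 0.04, -0.06 ± 0.04 and -0.03 ± 0.04, and its mean was -0.04 ± 0.03 (interval -0.10 to 0.01). Acat1 was at 0.09 with rosiglitazone and -0.03 with retinoic acid, neither of which passed. In quad the share of features that passed was 0.841% for the agonist mean, 0.0163% for Wy-14643, 5.69% for fenofibrate, 1.63% for bezafibrate and 2.42% for retinoic acid. Wy-14643 minus the fibrate mean passed for neither gene in soleus (0.04 for Acat1 and -0.12 for Slc16a1) or quad (0.10 and 0.01), where 0.00545% and 0.00543% of features passed.

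The 1 muscle call with single vehicle rats was Slc16a1 with rosiglitazone in quad. Its log2 ratio was -0.40, -0.16 and 0.11, against -0.36, -0.02 and 0.40 in vehicle rats, and 14 of 16 rats lay below the vehicle mean of their day, though only 3 lay below each vehicle rat. It fell by 0.14 on the log2 scale (SE 0.04, adjusted p 0.021 by limma), where 6.86% of features passed. The call was lost when day 3, 4, 5 or 6 was left out, when the arrays were scaled to one spread, and with either probe alone. Of the rats on day 3, 4 carry no rat number in the labels. Of 6 slow fibre markers tested in quad none passed with rosiglitazone, with a median of -0.31, and their mean per array ran from -2.16 to 0.35 (median -0.61) in rosiglitazone rats and from -1.37 to 1.00 (median -0.22) in vehicle rats. In soleus, where 1.96% of all features passed with the agonist mean, none of 3 fast fibre markers tested did, with a median of -0.75. Their mean per array, over 6 measured, ran from -4.12 to 1.38 (median -1.24) in agonist rats and from -3.50 to 1.43 (median -0.56) in vehicle rats. The part of fibre markers in the muscle values was not tested.

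The agonist mean differed between liver and each muscle for both genes. The difference, liver minus soleus, was 1.26 ± 0.09 for Acat1 and 0.84 ± 0.07 for Slc16a1, with adjusted p 1.4e-27 and 9.8e-22 by limma over both tissues, in a comparison that called 24.3% of features. Liver minus quad was 1.41 ± 0.08 and 0.83 ± 0.06, with adjusted p 6.8e-45 and 1.9e-29 by limma, where 28.9% were called. Soleus minus quad was 0.15 ± 0.08 and -0.01 ± 0.05, which did not pass (adjusted p 0.32 and 0.94 by limma), where 0.267% were called. The size for Slc16a1 depends on the probe. Its agonist mean was 0.28 in liver, -0.11 in soleus and -0.01 in quad with probe 1, and 1.30, 0.01 and -0.07 with probe 2. The differences between tissues were not tested by probe. The values are ratios to a pool of the same tissue, so they say nothing of whether a gene is more abundant in liver than in muscle. In bulk tissue, fewer cells of a type and less RNA per cell cannot be told apart.

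**Figure D5:**
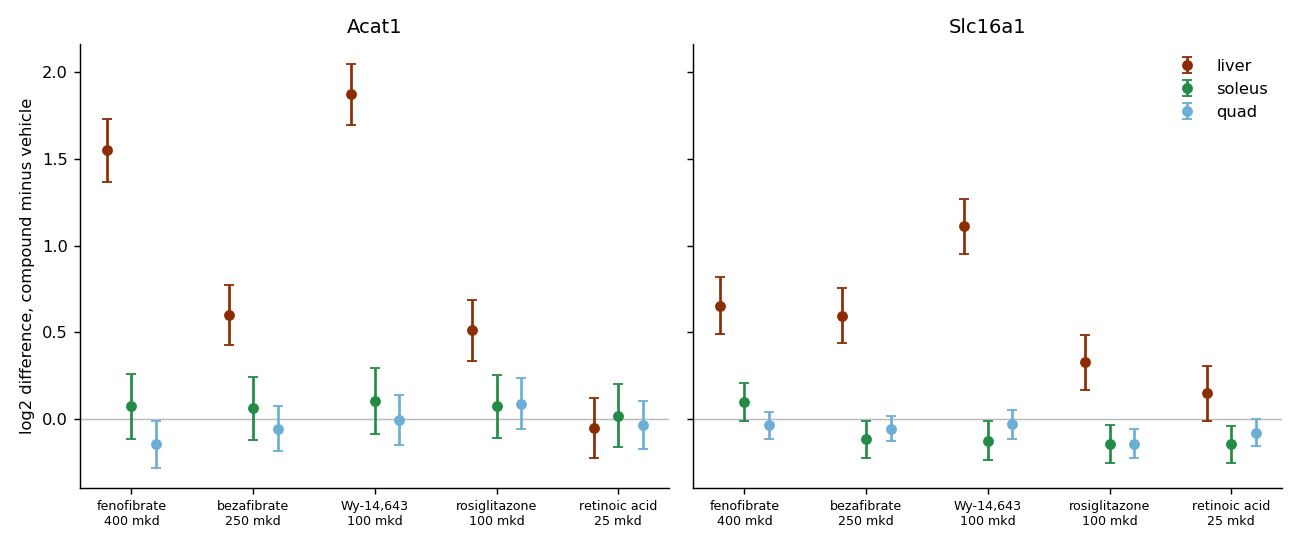
Log2 change against same-day vehicle rats (vertical axis) by compound (horizontal axis) in liver, soleus and quad. Points are estimates and bars 95% intervals. In liver Acat1 is at 1.55 with fenofibrate and 1.87 with Wy-14643, and in both muscles it lies between -0.15 and 0.10.

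In EDL the pool was the only control, so the spread of control rats is left out, and all doses but rosiglitazone at 100 mkd were lower than in the other tissues. Acat1's log2 ratio to the pool was 0.02 ± 0.09 with fenofibrate at 50 mkd, 0.10 ± 0.09 with bezafibrate at 25, -0.08 ± 0.08 with Wy-14643 at 10, 0.02 ± 0.09 with rosiglitazone at 10, 0.15 ± 0.13 with rosiglitazone at 100 and -0.05 ± 0.08 with retinoic acid at 2.5 mkd. None passed. Slc16a1 was below the pool with fenofibrate (-0.24 ± 0.06, adjusted p 0.00066 by limma), Wy-14643 (-0.16 ± 0.05, adjusted p 0.0065 by limma), rosiglitazone at 10 and 100 mkd (-0.14 ± 0.06 and -0.34 ± 0.08, adjusted p 0.040 and 0.0014 by limma) and retinoic acid (-0.19 ± 0.05, adjusted p 0.0024 by limma), and at -0.02 ± 0.06 with bezafibrate. These calls stood among 34.6%, 47.1%, 37.2%, 33.1% and 40.4% of all features in that order, and 33.9% for bezafibrate. With the other compounds as the reference in place of the pool, no EDL value of either gene passed for the compounds at the lower doses, and of all 18603 features only 0 to 122 passed limma's adjusted test per compound (979 to 1875 at an unadjusted p under 0.05), against 6311 to 8754 with the pool. For rosiglitazone at 100 mkd that comparison was not made. Rosiglitazone at 100 minus 10 mkd on day 4 gave -0.03 ± 0.20 for Acat1 and -0.15 ± 0.13 for Slc16a1, neither of which passed, where 0.0108% of features were called.

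Of 7 other genes listed for ketone body metabolism, 3 could be tested in liver, and with the agonist mean 2 fell and none rose: Aacs, which spends acetoacetate on lipid synthesis, fell by 0.33 on the log2 scale (adjusted p 0.032 by limma), Bdh2, a hydroxybutyrate dehydrogenase of the cytosol, fell by 0.26 (adjusted p 0.0030 by limma), and Bdh1, which makes hydroxybutyrate from acetoacetate, was at -0.05 and did not pass. By agonist, Aacs was at -0.14 with fenofibrate, -0.18 with bezafibrate and -0.68 with Wy-14643, and only the last passed. Bdh2 was at -0.03, -0.28 and -0.47 in that order, and again only Wy-14643 passed. Bdh1 fell by 0.26 with fenofibrate and was 0.21 higher with Wy-14643, and both passed. With bezafibrate it was at -0.11 and did not pass. The other listed genes were not analysed here. The list's median was -0.26, which with 3 genes is the value of Bdh2, beside 0.00 over all features tested. Of those features 45.5% passed, so 2 calls among 3 genes set the list little apart.

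Of 10 tested monocarboxylate carriers and their partners, 1 rose and 4 fell with the agonist mean in liver, a share near the 45.5% of all features that passed, and the median was -0.02. Slc16a6, a carrier that exports ketone bodies from zebrafish liver, rose by 1.09 ± 0.07 (adjusted p 1.1e-29 by limma), more than Slc16a1's 0.79 ± 0.05, a difference that was not tested. Slc16a12 fell by 0.46, Slc16a7 (MCT2) by 0.24, and Emb, a partner protein of the carriers, and Slc16a13 by 0.18 each. Slc16a3 (MCT4, the carrier of glycolytic muscle) was at -0.02 and Bsg (basigin, the partner that brings MCT1 to the membrane) at -0.02, and neither passed.

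Of 5 other thiolases tested, 4 rose with the agonist mean in liver, where 45.5% of all features passed: Acaa1b, the peroxisomal thiolase, by 2.01 ± 0.11, Hadhb, of the mitochondrial trifunctional protein, by 0.82 ± 0.05, Acaa2, a mitochondrial thiolase, by 0.71 ± 0.07, and Acat2, the cytosolic acetoacetyl-CoA thiolase, by 0.23 ± 0.05. Scp2 was at -0.06 and did not pass. The median was 0.71.

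Acat1 also acts in branched-chain amino acid breakdown, where 10 of 21 tested genes rose and 2 fell, with a median of 0.06, beside 45.5% of all features passing. Ppm1k, the phosphatase that activates the branched-chain ketoacid dehydrogenase, rose by 1.01 ± 0.07 and Hibch, of valine breakdown, by 0.69 ± 0.05. Hsd17b10, which acts just before Acat1 in isoleucine breakdown, rose by 0.37 ± 0.04. Auh, of leucine breakdown, fell by 0.23 ± 0.03. Of 12 lactate and pyruvate genes, which handle cargo of MCT1, 7 rose and 1 fell in the same comparison, with a median of 0.15. Pdk4, the kinase that shuts off pyruvate oxidation, rose by 1.65 ± 0.08, Ldha by 0.28 ± 0.06 and Pdhx by 0.31 ± 0.05, and Ldhb fell by 0.29 ± 0.08.

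Some classic PPARA targets rose in each of the 3 tissues with single vehicle rats. Acot1, an acyl-CoA thioesterase, rose by 3.11 ± 0.22 in liver, 1.63 ± 0.16 in soleus and 1.21 ± 0.16 in quad (adjusted p 5.0e-25, 4.8e-13 and 6.9e-08 by limma). Of 8 such genes tested, 6 rose in liver, 3 in soleus and 4 in quad. Of all features, 45.5%, 1.96% and 0.841% passed in that order. In liver Ehhadh, of peroxisomal fatty acid oxidation, rose by 2.62, Vnn1, a pantetheinase, by 2.77 and Cyp4a1, a fatty acid hydroxylase, by 1.94. With the agonist mean in the muscles none of the 3 ketone body genes, 10 carriers and partners or 21 branched-chain genes passed. At shares of 1.96% in soleus and 0.841% in quad, having no call sets lists of this size little apart. In soleus the thiolase Acaa2 rose by 0.39 ± 0.08, Pdk4 by 0.71 ± 0.09 and Pdha1 by 0.17 ± 0.05, and in quad Acaa1b rose by 0.65 ± 0.14 and Pdk4 by 0.44 ± 0.09.

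Markers of other cells moved in liver beside the members, in a comparison in which 45.5% of all features passed. Of 6 macrophage markers 5 fell with the agonist mean, with a median of -0.34, and their mean log2 ratio per array ran from -0.69 to 0.51 (median -0.30) in agonist livers and from -0.45 to 0.39 (median 0.00) in vehicle livers. Of 5 red cell markers 3 fell and 1 rose, with a median of -0.31. Of 4 hepatocyte markers tested only Ttr fell, by 0.62, with a list median of -0.08. Over the 8 hepatocyte markers measured, the mean per array ran from -0.72 to 0.38 (median -0.26) in agonist livers and from -0.44 to 0.38 (median -0.01) in vehicle livers. The red cell mean ran from -0.88 to 0.15 (median -0.17) in agonist livers and from -0.43 to 0.50 (median -0.03) in vehicle livers. Their part in the results was not tested. Since each array is a ratio to a pool of its own tissue, the tissue label could be checked only through arrays on which markers of another tissue stood high: vehicle rats 1034 in soleus and 1042 in quad, and retinoic acid rat 1321 in quad.

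Over all 147 liver arrays, with the vehicle mean of the day subtracted, the named genes most like Acat1 were Cpt1b (r = 0.91), the fatty acid importer of muscle mitochondria, Hhatl (0.90) and Hadha (0.88), of the trifunctional protein. Those most like Slc16a1 were Mdfic (0.85), Gria4 (0.85) and Chkb (0.81), a choline kinase. With each other they correlated at 0.75, which ranks Slc16a1 at 102 among the 18403 features by likeness to Acat1, and at 161 (r = 0.74) without the array of rat 1376. In soleus Acat1 was most like Ddx10 (0.66), Selenoo (0.64) and Opn1mw (0.64), and Slc16a1 most like Dnajc28 (0.71), Tmem177 (0.68) and Ciao3 (0.66). In quad Acat1 was most like Ddx10 (0.69), Mfn1 (0.58) and Ppa2 (0.58), and Slc16a1 most like Lmod2 (0.64), Ppif (0.62) and Ube2ql1 (0.61). Without the arrays in doubt Ddx10 stayed first for Acat1, at 0.47 in soleus and 0.57 in quad. The other values for Acat1 in muscle were then lower, and these genes lost their places. Selenoo (0.40) ranked 45 and Opn1mw (0.40) 49 in soleus, and Mfn1 (0.38) ranked 31 and Ppa2 (0.39) 19 in quad. The named genes next to Ddx10 were then Aanat (0.46) and Tm7sf2 (0.46) in soleus and Echs1 (0.55) and Ppip5k1 (0.42) in quad. Correlations over arrays that share treatments describe these arrays, and the points share their pools.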

How the data were processed

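The authors deposited 1 value per probe, a log10 ratio, for 23653 probes and 484 arrays. Their normalization is not given in the sources used here. Scale and direction (rat over pool, Cy5 over Cy3) were inferred from the channels in the labels and from values centred on 0 and limited to -2 and 2. Ratios were multiplied by 3.3219 to give log2 values. Without intensities, precision is limited by how many arrays a group has.

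Per the labels of most samples, RNA was reverse transcribed, transcribed in vitro and coupled to dye. Missing values made up 0.907%, and 699 were at the limit. Of the probes, 15260 named 1 gene, 17 several and 8376 none in the platform annotation, and 56 gene IDs had no match in the rat gene table. Averaging the probes of each gene left 18603 features, and a feature was tested where 80% or more of a tissue's arrays held a value.

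For each tissue with single vehicle rats, limma 3.58.1 in R 4.3.3 fitted 1 mean per compound and day. Contrasts were compound minus vehicle within days, averaged over days, and p-values were adjusted by Benjamini-Hochberg within a comparison. EDL ratios were tested against 0. Replicates are rats. The fit was tested on simulated data with independent normal noise and the same shift on every agonist array of a changed feature. For the agonist mean, shifts of 0.25 log2 units were recovered in 91.04% of changed features in liver, 74.63% in soleus and 92.54% in quad. The simulation held no arrays of wide spread and no disagreeing probes, so it does not cover them. An array was in doubt with a spread over 3 times its tissue's median or markers of another tissue over 2 log2 units above arrays of its tissue and day, a rule set with the arrays already known. Arrays of 1 rat in different tissues share the animal by its number in the labels. With group means subtracted they correlated at a median of 0.26 for soleus and quad, 0.14 for liver and soleus and 0.14 for liver and quad, against -0.07, -0.04 and -0.02 for other rats. Correlations used 100000 permutations within days, two-sided. Named genes are both members, up to 4 passing genes of each list and tissue by smallest adjusted p, Bdh1, Slc16a3, Bsg, Acot1 and a few others where measured, and the 3 named genes most like each member. Locus-number symbols were passed over, a later choice. Slc16a13, Scp2 and Ldhb lie outside this rule and were named after their values were seen. The members and lists were chosen with earlier results of these data known. Other steps used Python 3.11.15, numpy 2.4.6, pandas 2.3.3, scipy 1.17.1 and matplotlib 3.10.9.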

Additional observations from a re-analysis of the deposited data

Results flagged for a closer look

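The response of the members differed between tissues. The mean of the PPARA agonists in liver minus that in soleus was 1.26 for Acat1 and 0.84 for Slc16a1, and in liver minus quad 1.41 and 0.83, each past limma's test of the difference itself. These values average the probes of a gene, and the differences were not tested by probe.

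Groups of 4 to 10 rats were checked for a rat that stood apart, each gene on its own, 90 checks in all. Each liver group was smaller or larger than that and was not checked. The day 3 vehicle group of soleus, with 11 rats, was not checked either, nor were those of quad on days 2, 4, 5 and 6, with 14, 15, 15 and 11. Muscle groups of 2 or 3 rats were also left out, among them fenofibrate in quad on day 6, which holds rat 1157. Of the 90, 5 held a rat that stood apart from the others of its tissue, compound and day, and chance flags about 1 in 20. For Acat1 these were Wy-14643 rat 1200 in quad on day 2, at -0.776, and retinoic acid rat 1315 in quad on day 3, at -0.436. For Slc16a1 they were rosiglitazone rat 1376 in EDL on day 4, at -0.051, Wy-14643 rat 1214 in soleus on day 6, at 0.255, and fenofibrate rat 1144 in soleus on day 2, at 0.494.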

How the results depend on the processing

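Of 938 results and settings compared, 872 counted as unchanged. Where a p-value was computed, this meant the same direction and side of the threshold. Leaving out single arrays gave effect sizes only, and a shift under the mean SD of the groups counted as unchanged. Values that had not passed could turn sign there uncounted. Acat1 ran from -0.018 to 0.045 with retinoic acid in soleus and from -0.031 to 0.037 with Wy-14643 in quad. In liver, each PPARA agonist call and each difference of Wy-14643 from the fibrates held under every alternative with a p-value, except Slc16a1 with bezafibrate with probe 1 alone. Over all of them Acat1 ran from 1.18 to 1.61 with fenofibrate, 0.55 to 0.66 with bezafibrate and 1.504 to 2.002 with Wy-14643, and Slc16a1 from 0.29 to 1.02, 0.096 to 1.09 and 0.44 to 1.78. Slc16a1's range is set by its probes. Most other changes were turned signs of values near 0 that did not pass in any case. The causes of the shifts below were not tested.

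With probe 1 alone Slc16a1 gave 0.096 for bezafibrate and 0.020 for rosiglitazone in liver, both no longer passing, -0.013 for retinoic acid in liver, -0.053 for fenofibrate in soleus, and 0.045 for fenofibrate, -0.089 for rosiglitazone (no longer passing) and -0.052 for Wy-14643 minus fibrates in quad. With probe 2 alone Slc16a1 gave -0.20 for rosiglitazone in quad (no longer passing) and 0.0095 for the agonist mean in soleus. Acat1 with probe 2 gave 0.0020 for retinoic acid in liver, -0.017 for Wy-14643 minus fibrates in soleus, and 0.079 for Wy-14643 and 0.012 for retinoic acid in quad.

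With array quality weights, retinoic acid gave 0.0075 for Acat1 and 0.16 for Slc16a1 in liver, the second then passing, and Acat1 in soleus gave -0.00079 for bezafibrate and -0.036 for retinoic acid. With arrays scaled to one spread, Acat1 gave -0.014 for retinoic acid in soleus and 0.019 for Wy-14643 in quad, and Slc16a1 with rosiglitazone in quad gave -0.11, no longer passing. Against the pool, Acat1 in soleus gave -0.015 for fenofibrate, -0.027 for bezafibrate, -0.014 for rosiglitazone, -0.069 for retinoic acid and -0.0089 for the agonist mean, and 0.0070 for Wy-14643 in quad. Slc16a1 in soleus then passed for rosiglitazone, at -0.15, and for retinoic acid, at -0.15.

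Slc16a1 with rosiglitazone in quad no longer passed without day 3 (-0.14), day 4 (-0.14), day 5 (-0.15) or day 6 (-0.092), and with retinoic acid in quad it passed without day 2, at -0.15. Acat1 in soleus turned sign without day 3 for bezafibrate (-0.0096) and retinoic acid (-0.059), and for Wy-14643 minus fibrates without day 4 (-0.031), day 5 (-0.020) and day 6 (-0.030). In quad Acat1 turned for Wy-14643 without day 2 (0.089) and day 3 (0.046), for retinoic acid without day 3 (0.012) and for Wy-14643 minus fibrates without day 6 (-0.0085), and Slc16a1 for Wy-14643 minus fibrates without day 5 (-0.00034) and day 6 (-0.014). Without vehicle rat 1022 Acat1 with retinoic acid in soleus was -0.018, and without all arrays in doubt -0.022. Slc16a1's soleus minus quad difference was 0.00074 without arrays in doubt.

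With the rat as a replicate block, in rats with arrays of both tissues, the pairing changed no call between tissues: liver minus soleus was 1.27 for Acat1 and 0.86 for Slc16a1, liver minus quad 1.37 and 0.81, and soleus minus quad 0.15 and 0.018, the last with its sign turned.

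In EDL, with the other compounds as the reference, Slc16a1 gave -0.033 for retinoic acid and -0.12 for fenofibrate, both no longer passing, and 0.0086 for Wy-14643, 0.15 for bezafibrate and 0.0015 for rosiglitazone at 10 mkd, and Acat1 gave -0.0058 for fenofibrate and -0.0024 for rosiglitazone. Slc16a1 with rosiglitazone at 10 mkd no longer passed with array medians subtracted (-0.14), without day 4 (-0.12) or without day 6 (-0.11), and with bezafibrate it gave 0.015 without day 5 and 0.0045 without day 6. Acat1 gave -0.055 for fenofibrate and -0.061 for rosiglitazone without day 4, and -0.0065 and -0.027 without day 6. Leaving out each rat in turn, the dose difference of Acat1 ran from -0.0897 to 0.0512, the highest without rat 1376. That of Slc16a1 ran from -0.242 to -0.106, the lowest also without rat 1376, and did not pass.

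Chosen after the data were seen, Slc16a1 probe 2 alone correlated with Acat1 over vehicle soleus arrays at 0.61, and at 0.063 without the 2 farthest rats. Counts of all features called in muscle moved more: the agonist mean called 360 in soleus, between 89 and 5664 over the settings, and 155 in quad, between 44 and 3178, against 8373 in liver, between 7103 and 10666. By compound, the counts in soleus were 612 for fenofibrate (147 to 3546), 166 for bezafibrate (23 to 2215), 35 for Wy-14643 (12 to 1303), 484 for rosiglitazone (215 to 3281) and 524 for retinoic acid (192 to 3071). In quad they were 1048 (22 to 3192), 300 (84 to 1440), 3 (0 to 188), 1263 (563 to 4208) and 445 (210 to 1.86 times that count) in the same order. Wy-14643 minus fibrates called 1 in soleus (0 to 362) and 1 in quad (0 to 16). In liver the counts that moved by over 1.5 times were Wy-14643 minus fibrates, at 1660 (765 to 4149), bezafibrate, at 3910 (2693 to 7482), rosiglitazone, at 4162 (2477 to 5201), retinoic acid, at 5377 (3934 to 8376), and the slope per day, at 154 and 298.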

Other observations

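Ddx10, the gene most like Acat1 in both muscles, lies on the same chromosome as Acat1, with 336 kb between them in GRCr8. In liver Ddx10 changed by 0.20 ± 0.06 with the agonist mean, where Acat1 changed by 1.34 ± 0.06. Cpt1b, first in likeness to Acat1 in liver, and Chkb, among the first for Slc16a1, are neighbours on chromosome 7 with 118 bases between them. Cpt1b rose by 2.56 ± 0.09 and Chkb by 1.04 ± 0.04 in liver. Hhatl rose by 1.23 ± 0.04, Hadha by 0.66 ± 0.03, Mdfic by 0.84 ± 0.06 and Gria4 by 0.63 ± 0.05.

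In the quad array of fenofibrate rat 1157, which was in doubt for its spread, the probes of Slc16a1 read 1.35 and -1.30 and those of Acat1 -1.18 and -1.62. The soleus array of the same rat read 0.23 and 0.36 for Slc16a1 and -0.14 and 0.01 for Acat1.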
